A study of Mus musculus with 9 samples.

Results

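The genes described here are 38 expressed genes whose RNA was lower with each of the inhibitors tazemetostat and valemetostat than with the solvent DMSO. They were chosen on the measured values. A gene had to average at least 5 CPM (counts of the gene per 1000000 counts of the library) in the DMSO libraries, and its highest CPM in the 6 inhibitor libraries had to be at most 0.7 times its lowest CPM in the 3 DMSO libraries. Of 45361 gene identifiers in the count table, 9487 reached the 5 CPM level and 47 met both conditions, of which 9 were left out by name (a set list and the Slc and Zfp families), leaving 38. The lower level of these 38 genes with both inhibitors is therefore the rule itself, and the values against DMSO are given as a description without a test.

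Every library was made from the mouse B-lymphoma line CH12F3 carrying a Ligase4 knockout, so the DMSO controls also lacked this DNA ligase. A 24 h stimulation with TGF-β, IL-4 and anti-CD40 was likewise common to all groups. The groups were 3 libraries with tazemetostat, 3 with valemetostat and 3 with DMSO, sequenced from poly(A)-selected RNA. The sources used here do not give the doses, the length of inhibitor treatment or the number of knockout clones. The comparison addresses which transcripts each compound alters.

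Tazemetostat inhibits EZH2, the catalytic subunit of Polycomb repressive complex 2, and valemetostat inhibits EZH2 and its paralog EZH1. The complex trimethylates lysine 27 of histone H3, a mark known for keeping genes silent, and in germinal centre B cells EZH2 is known for holding differentiation genes down. A gene that loses the mark is therefore usually described as gaining expression, and the 38 genes are those that were lower.

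Before the values, 4 promoters are shown. They belong to the named members of at least 10 CPM in DMSO with the lowest ratio that had a promoter entry, and they differ widely in base composition. Cd36, Alcam, Arid5b and Tnf are among the 12 members with the lowest ratio of inhibitor to DMSO level. Each line runs 5′ to 3′ from 250 bases before to 50 bases after the RefSeq transcription start listed first for the gene (build GRCm38.p6). The windows lie at chr5:17835847-17836146 on the minus strand, chr16:52453032-52453331 on the minus strand, chr10:68278677-68278976 on the minus strand and chr17:35201958-35202257 on the minus strand. Capitals mark exact matches, on either strand, to a short motif out of 11 that were searched, which here were the CCAAT box (CCAAT), the GC box (GGGCGG) and the TATA box (TATAAA).
Cd36: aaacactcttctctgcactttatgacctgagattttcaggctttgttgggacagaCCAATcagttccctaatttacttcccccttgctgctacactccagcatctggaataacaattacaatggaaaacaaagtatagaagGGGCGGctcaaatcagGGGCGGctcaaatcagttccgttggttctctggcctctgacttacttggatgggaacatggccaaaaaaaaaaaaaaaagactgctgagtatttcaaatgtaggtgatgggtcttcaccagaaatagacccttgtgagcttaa
Alcam: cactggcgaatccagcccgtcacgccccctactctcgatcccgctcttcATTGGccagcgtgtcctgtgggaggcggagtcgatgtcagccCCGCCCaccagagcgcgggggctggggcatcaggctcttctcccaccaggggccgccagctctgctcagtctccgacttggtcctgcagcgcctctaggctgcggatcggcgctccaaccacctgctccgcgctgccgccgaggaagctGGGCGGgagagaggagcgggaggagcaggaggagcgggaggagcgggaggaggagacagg
Arid5b: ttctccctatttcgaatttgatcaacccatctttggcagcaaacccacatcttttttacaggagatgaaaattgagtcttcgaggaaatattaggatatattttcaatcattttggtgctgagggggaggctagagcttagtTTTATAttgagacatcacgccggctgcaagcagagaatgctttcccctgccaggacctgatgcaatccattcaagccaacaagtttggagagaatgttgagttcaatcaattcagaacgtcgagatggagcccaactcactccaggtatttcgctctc
Tnf: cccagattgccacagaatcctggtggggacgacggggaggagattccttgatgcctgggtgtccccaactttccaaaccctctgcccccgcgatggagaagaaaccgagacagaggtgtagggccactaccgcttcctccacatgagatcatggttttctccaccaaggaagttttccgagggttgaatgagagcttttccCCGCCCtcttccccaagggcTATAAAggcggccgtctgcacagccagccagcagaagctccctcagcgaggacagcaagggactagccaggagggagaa
The Cd36 window held 43.0% G and C and the Alcam window 69.7%, with GC boxes in both. The Arid5b window, at 43.3%, held only a TATA box in reverse orientation. The Tnf window, at 58.0%, held a TATA box and a reverse GC box.

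Among the 38 genes, the level with tazemetostat lay between 30.0 and 64.5% of the DMSO mean, with a median of 53.9%. With valemetostat it lay between 18.5 and 64.5%, with a median of 52.4%. The mean was below 50% of DMSO for 9 genes with tazemetostat and for 14 genes with valemetostat. The DMSO level itself ran from 5.27 to 1268 CPM, with 5 genes at or above 100 CPM and 9 under 10 CPM. The depth behind these values was 34080504 to 46675110 counts per library, and the lowest count of any of the 38 genes in any library was 33. All 38 passed the filter on low counts among the 12580 genes tested. In the fit over all tested genes, 37 of the 38 were called lower with tazemetostat, where 18.2% of all tested genes were, and 38 with valemetostat, where 18.7% were. Gm20605 was not called with tazemetostat. Those calls follow from the rule and carry no weight of their own. The inhibitor libraries lay below every DMSO library, without overlap, for 20.1% of tested genes, and the 0.7 ratio alone, with no floor, was met by 0.771%.

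The depth of the reduction was bounded by the least affected inhibitor library and the lowest DMSO library. DMSO 3 was the lowest DMSO library for 25 of the 38 genes, DMSO 1 for 10 and DMSO 2 for 3. Without DMSO 3 the same rule gave 89 genes, with all 38 among them. Without any other library it gave 38 to 46 genes, and only Ankrd16 dropped out, when DMSO 2 was left out. In bulk RNA, fewer cells of a type and less RNA per cell cannot be told apart.

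**Figure D1:**
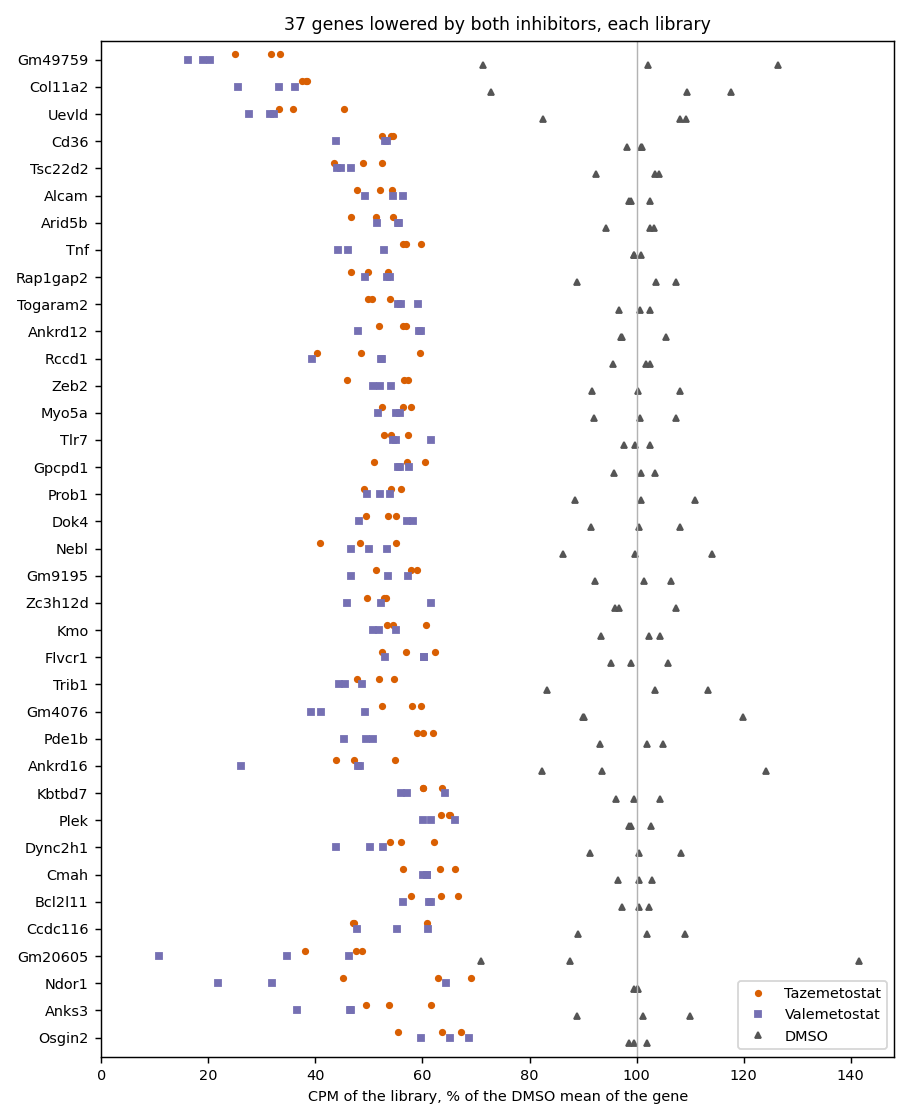
Every library's CPM for 37 of the 38 genes, as a percentage of the gene's DMSO mean, with genes ordered from the lowest ratio of highest inhibitor to lowest DMSO library at the top. Circles are tazemetostat, squares valemetostat and triangles DMSO libraries; Gm49759, Col11a2 and Uevld head the order, the single lowest point is a valemetostat library of Gm20605, and Gm20605 and Gm49759 have the widest spread among DMSO libraries.

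Surface receptors and a cytokine formed the first group by role, with Cd36, Alcam, Tlr7, Flvcr1 and Tnf. Cd36, a scavenger receptor that takes up fatty acids and oxidised lipoproteins, had 58.7, 60.9 and 60.5 CPM with tazemetostat, 59.6, 59.3 and 49.1 CPM with valemetostat and 109.7, 113 and 113 CPM with DMSO. The inhibitor libraries were all near the same level except valemetostat 3, which was lower, and DMSO libraries were nearly identical. Alcam, an adhesion molecule of the immunoglobulin superfamily that binds CD6 on T cells, had 59.7, 62.2 and 54.8 CPM with tazemetostat, 62.5, 56.6 and 64.6 CPM with valemetostat and 113, 118 and 113 CPM with DMSO. The ranges of the inhibitors overlapped, and every DMSO library was higher. On the log2 scale the difference from DMSO was -0.87 ± 0.06 for tazemetostat and -0.98 ± 0.06 for valemetostat for Cd36, and -0.93 ± 0.06 for tazemetostat and -0.89 ± 0.06 for valemetostat for Alcam (± standard error).

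Tlr7, the endosomal receptor for single-stranded RNA, had 13.3, 13.6 and 14.4 CPM with tazemetostat, 15.5, 13.7 and 13.9 CPM with valemetostat and 25.1, 24.6 and 25.8 CPM with DMSO. Its libraries were tight within each group in CPM, and the inhibitor groups overlapped each other. In TPM they were not, with 5.80, 4.64 and 9.58 with valemetostat and 9.28, 14.6 and 10.66 with DMSO. Tnf, the inflammatory cytokine, had 11.1, 10.5 and 10.6 CPM with tazemetostat, 8.58, 8.22 and 9.83 CPM with valemetostat and 18.7, 18.5 and 18.5 CPM with DMSO. All valemetostat libraries were lower than all tazemetostat libraries for Tnf, and all of these were lower than DMSO. Flvcr1, a membrane transporter described for haem and choline, averaged 32.9 ± 2.85 CPM with tazemetostat, 33.2 ± 2.44 CPM with valemetostat and 57.5 ± 3.14 CPM with DMSO (SD, n = 3). Its annotated exons share 15.6% of their bases with an antisense RNA gene, and the sources used here do not say whether counting used strand.

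Regulators of transcription, apoptosis and turnover made up the largest group, with 8 genes. Tsc22d2, which encodes a TSC22-domain protein, had 70.5, 65.6 and 58.2 CPM with tazemetostat, 60.1, 59.0 and 62.5 CPM with valemetostat and 139.7, 139 and 124 CPM with DMSO. Arid5b, a DNA-binding partner of the histone demethylase PHF2, had 14.3, 13.0 and 15.2 CPM with tazemetostat, 15.5, 14.3 and 15.5 CPM with valemetostat and 28.6, 28.8 and 26.3 CPM with DMSO. For both genes the inhibitor libraries lay together and the DMSO 3 library was the lowest of the controls. Zeb2, a zinc finger repressor that binds E-boxes, had 27.8, 27.5 and 22.3 CPM with tazemetostat, 26.3, 24.7 and 25.3 CPM with valemetostat and 52.5, 48.7 and 44.6 CPM with DMSO. Tazemetostat 3 was the lowest of its 6 inhibitor libraries.

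Bcl2l11, which encodes the pro-apoptotic BH3-only protein BIM, had 64.4, 61.4 and 56.0 CPM with tazemetostat, 59.7, 54.6 and 59.3 CPM with valemetostat and 97.2, 99.0 and 94.2 CPM with DMSO. Its level was 62.6% of its DMSO mean with tazemetostat and 59.8% with valemetostat, among the smaller reductions. Ankrd12, an ankyrin repeat protein that binds nuclear receptor coactivators, had 17.2, 17.0 and 15.6 CPM with tazemetostat, 17.9, 14.5 and 18.0 CPM with valemetostat and 29.4, 31.9 and 29.3 CPM with DMSO. The inhibitor groups overlapped for Ankrd12, and valemetostat 2 was the lowest library. Trib1, a pseudokinase scaffold that brings C/EBPα to the ubiquitin ligase COP1, averaged 11.9 ± 0.796 CPM with tazemetostat, 10.7 ± 0.520 CPM with valemetostat and 23.1 ± 3.53 CPM with DMSO. Zc3h12d, an RNase of the regnase family that limits inflammatory mRNAs, averaged 28.1 ± 1.04 CPM with tazemetostat, 28.8 ± 4.26 CPM with valemetostat and 54.1 ± 3.44 CPM with DMSO. Kbtbd7, a substrate adaptor of CUL3 ubiquitin ligases, averaged 9.03 ± 0.304 CPM with tazemetostat, 8.70 ± 0.652 CPM with valemetostat and 14.7 ± 0.602 CPM with DMSO, so that its difference was among the smallest of the group.

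Signalling proteins were Plek, Rap1gap2, Dok4 and Pde1b. Plek, the protein kinase C substrate pleckstrin of platelets and leukocytes, was the most abundant of the 38 genes and had 825, 825 and 804 CPM with tazemetostat, 838, 763 and 780.4 CPM with valemetostat and 1254, 1301 and 1249 CPM with DMSO. The groups were far apart relative to their spread, and the level was 64.5% of its DMSO mean with tazemetostat and 62.6% with valemetostat. Rap1gap2, which switches off the small GTPase RAP1, had 33.9, 36.5 and 31.7 CPM with tazemetostat, 36.7, 36.3 and 33.5 CPM with valemetostat and 73.0, 70.6 and 60.5 CPM with DMSO. Its DMSO 3 library was the lowest control and still above every inhibitor library. Dok4, a docking protein downstream of tyrosine kinases, was at 52.7% of its DMSO mean with tazemetostat and 54.5% with valemetostat. It shares 31.2% of its exon bases with Polr2c on the opposite strand, which differed from DMSO by -0.01 with tazemetostat and 0.02 with valemetostat (log2, not called). Pde1b, a calcium- and calmodulin-dependent cyclic nucleotide phosphodiesterase, had 5.14, 5.30 and 5.05 CPM with tazemetostat, 4.34, 4.22 and 3.88 CPM with valemetostat and 8.98, 8.71 and 7.97 CPM with DMSO, with every valemetostat library under every tazemetostat library.

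Among genes of the cytoskeleton and the cilium, Myo5a, the cargo motor myosin Va, had 123, 126 and 114 CPM with tazemetostat, 121, 112 and 119 CPM with valemetostat and 219, 233 and 199.8 CPM with DMSO. The inhibitor groups overlapped, and DMSO 3 was again the lowest control. Togaram2, a microtubule-binding protein with TOG domains, had 15.6, 16.7 and 15.4 CPM with tazemetostat, 18.3, 17.4 and 17.2 CPM with valemetostat and 30.0, 31.8 and 31.2 CPM with DMSO. For Togaram2 the valemetostat libraries were all above the tazemetostat libraries. Dync2h1, the heavy chain of the dynein that drives retrograde transport in cilia, had 19.9, 22.0 and 19.1 CPM with tazemetostat, 15.5, 17.8 and 18.6 CPM with valemetostat and 35.6, 38.4 and 32.4 CPM with DMSO, and here the valemetostat libraries were all below the tazemetostat libraries. Nebl, the actin-binding protein nebulette, averaged 7.90 ± 1.17 CPM with tazemetostat, 8.21 ± 0.553 CPM with valemetostat and 16.4 ± 2.29 CPM with DMSO. Anks3, which interacts with the ciliary kinase NEK8, was at 54.9% of its DMSO mean with tazemetostat and 43.2% with valemetostat.

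Metabolic enzymes formed a group of 7. Kmo, the kynurenine 3-monooxygenase of tryptophan breakdown, averaged 13.4 ± 0.930 CPM with tazemetostat, 12.5 ± 0.533 CPM with valemetostat and 23.8 ± 1.40 CPM with DMSO. The inhibitor groups overlapped for Kmo. Cmah, which converts the sialic acid Neu5Ac to Neu5Gc, was at 61.9% of its DMSO mean with tazemetostat and 60.6% with valemetostat. Gpcpd1, a glycerophosphocholine phosphodiesterase, was at 56.2% of its DMSO mean with tazemetostat and 56.3% with valemetostat. Uevld, with a ubiquitin-conjugating variant domain and a lactate dehydrogenase-like domain, had 1.87, 2.01 and 2.54 CPM with tazemetostat, 1.81, 1.55 and 1.77 CPM with valemetostat and 6.06, 6.13 and 4.63 CPM with DMSO, which is a larger relative reduction from a low level. Osgin2, a relative of the growth inhibitor Osgin1, was at 62.1% of its DMSO mean with tazemetostat and 64.5% with valemetostat, the nearest to the 0.7 limit.

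**Figure D2:**
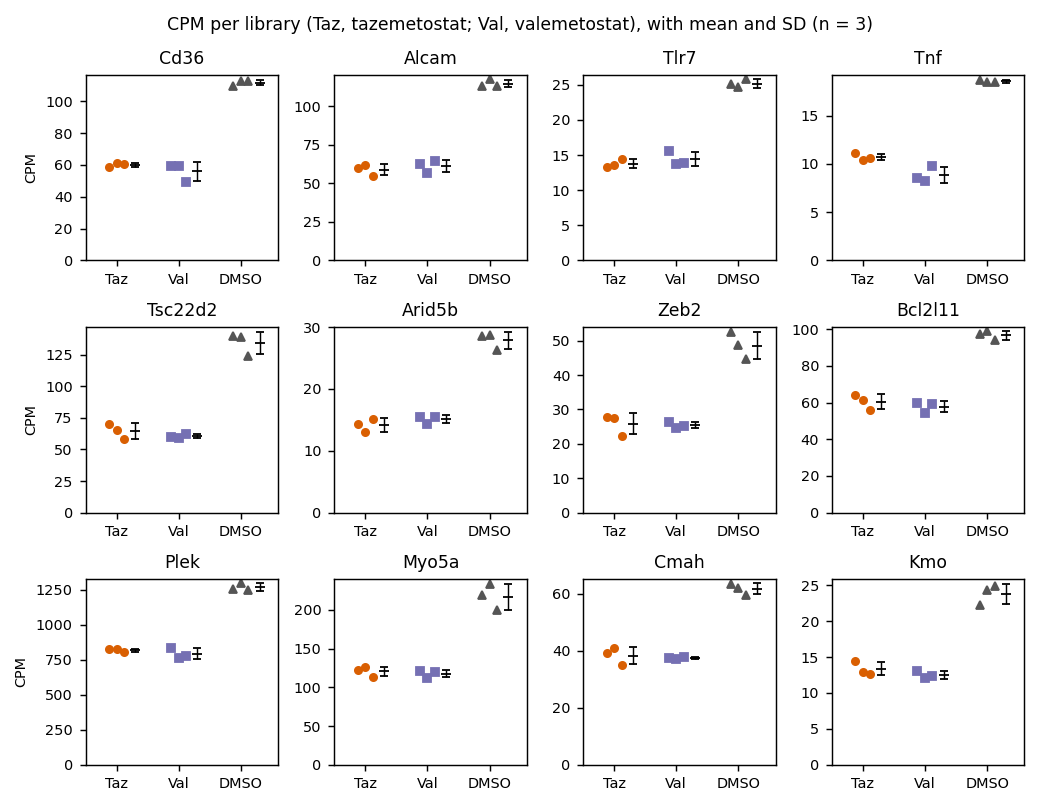
CPM of 12 of the genes in each library, with tazemetostat (circles), valemetostat (squares) and DMSO (triangles) from left to right; bars beside the points give the mean and SD of 3 libraries, and each panel has its own axis from 0. The inhibitor libraries of a gene lie together, and Tnf is the panel in which valemetostat sits below tazemetostat without overlap.

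Of the remaining genes, Col11a2, a chain of type XI collagen, had 2.17, 2.22 and 2.21 CPM with tazemetostat, 1.48, 1.93 and 2.09 CPM with valemetostat and 6.81, 6.34 and 4.21 CPM with DMSO. It was low throughout, and DMSO 3 was its lowest control. Rccd1, a partner of the histone demethylase KDM8, was at 49.5% of its DMSO mean with tazemetostat and 48.0% with valemetostat, and 11.5% of its exon bases are shared with Prc1 on the opposite strand. Ankrd16, described in mouse as a co-factor of alanyl-tRNA synthetase proofreading, was at 48.7% of its DMSO mean with tazemetostat and 40.8% with valemetostat. Ccdc116 was at 51.7% of its DMSO mean with tazemetostat and 54.6% with valemetostat, and Prob1 at 53.1% of its DMSO mean with tazemetostat and 51.9% with valemetostat.

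The 4 predicted genes are named because the comparison of the inhibitors turned on some of them, a choice made after their values were seen. Gm49759 showed the largest reduction of the 38 genes and had 6.83, 6.48 and 5.11 CPM with tazemetostat, 3.88, 3.30 and 4.15 CPM with valemetostat and 20.9, 25.9 and 14.6 CPM with DMSO. Its valemetostat libraries were all below its tazemetostat libraries, and the DMSO libraries differed widely among themselves. Its exons share 19.7% of their bases with the highly expressed Pkm gene, at 4030 CPM in DMSO, which differed from DMSO by 0.09 with tazemetostat and 0.08 with valemetostat (log2, not called). Gm4076 had 41.2, 42.4 and 37.3 CPM with tazemetostat, 34.9, 27.7 and 29.2 CPM with valemetostat and 63.8, 85.0 and 64.0 CPM with DMSO, again with no overlap between the inhibitors. GENCODE M21 annotates it as a processed pseudogene with 1 exon of 965 nt, and its reads may be shared with near-identical copies. Gm9195 was at 56.1% of its DMSO mean with tazemetostat and 52.5% with valemetostat. Gm20605, a read-through locus listed in RefSeq as Lrch4-sap25, had 4.27, 4.17 and 3.34 CPM with tazemetostat, 4.06, 0.948 and 3.04 CPM with valemetostat and 6.21, 12.4 and 7.67 CPM with DMSO. Its libraries were uneven within the valemetostat and the DMSO groups. It shares 67.9% of its exon bases with Lrch4, which averaged 54.4 CPM in DMSO and had log2 differences from DMSO of 0.18 (tazemetostat) and 0.10 (valemetostat). Lrch4 was called higher with tazemetostat (edgeR adjusted p = 0.0226) and was not called with valemetostat (adjusted p = 0.194).

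The member listed as Ndor1, a reductase of cytosolic iron-sulfur cluster assembly, is a further identifier under a name that other identifiers also carry. It had 3.32, 2.38 and 3.64 CPM with tazemetostat, 1.68, 1.15 and 3.39 CPM with valemetostat and 5.29, 5.25 and 5.28 CPM with DMSO. Of its exon bases, 99.9% also belong to the main Ndor1 identifier, which averaged 22.1 CPM in DMSO and differed from DMSO by -0.25 with tazemetostat and -0.22 with valemetostat. The main identifier was called lower with tazemetostat (edgeR adjusted p = 0.0416) and was not called with valemetostat (adjusted p = 0.0673). Another identifier named Ndor1 holds 75.8% of the member's exon bases and averaged 0.305 CPM in DMSO. From that low level it differed by -6.62 with tazemetostat (edgeR adjusted p = 0.0179) and -0.80 with valemetostat (adjusted p = 0.583). The sources used here do not say how reads were split between these identifiers, so the value of this member and those of Gm20605, Gm49759 and the pseudogene Gm4076 are uncertain. In all, 10 of the 38 genes share exon bases with another annotated gene.

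The rule's edges were close to values outside it. Just inside the ratio lay Ndor1 and Anks3, both at 0.694, and Osgin2 at 0.698. Just outside it lay Ash1l, a histone methyltransferase, at 0.703, Ccdc80 at 0.704 and Mdn1 at 0.706. At the floor, Ndor1 at 5.27 CPM and Ankrd16 at 5.39 CPM were the lowest members, and Lama5 at 4.79 CPM and Ptprv at 3.06 CPM met the ratio but not the floor. With a ratio of 0.6 the rule gave 7 genes, namely Gm49759, Col11a2, Uevld, Cd36, Tsc22d2, Alcam and Arid5b, and with 0.8 it gave 157.

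Levels can be compared between genes only per transcript length, as TPM (transcripts per 1000000, from the deposited log2 values). Plek was highest, at 259 ± 8.49 TPM with tazemetostat, 249 ± 15.3 TPM with valemetostat and 416 ± 21.6 TPM with DMSO. The pseudogene Gm4076 followed with 71.2 ± 5.70 TPM with tazemetostat, 53.5 ± 7.08 TPM with valemetostat and 131 ± 25.9 TPM with DMSO. The next in DMSO were Myo5a at 64.7 TPM, Cd36 at 58.8, Alcam at 58.4, Tsc22d2 at 38.2 and Bcl2l11 at 35.4 TPM, of which Cd36 and Alcam did not differ beyond their spread (SD 2.17 and 4.72). On the TPM scale the group means of the 38 genes lay at 28.9 to 68.4% of DMSO with tazemetostat and 17.6 to 62.1% with valemetostat. Single libraries overlapped DMSO on this scale for Tlr7, Nebl, Uevld and Col11a2. Valemetostat 3 had 9.58 TPM for Tlr7 (DMSO 1, 9.28), and valemetostat 2 had 16.49 for Nebl (DMSO 1, 14.44). Tazemetostat 2 had 1.67 TPM for Uevld (DMSO 3, 1.35) and 1.20 for Col11a2 (DMSO 3, 1.14). The same rule applied to TPM gave 25 genes, of which 17 were among the 38.

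Valemetostat against tazemetostat is the comparison that the rule did not fix, since the rule caps both groups at the same limit. No member was called at an adjusted p under 0.05 by edgeR's quasi-likelihood test, adjusted over all 12580 genes, where 0.318% of tested genes were called (0.0636% higher and 0.254% lower). The smallest adjusted p among the members was 0.148, for Gm49759, and 7 members had an unadjusted p under 0.05, where 7.94% of tested genes did. DESeq2 called 2, where it called 0.678% of the genes it gave an adjusted p, and also had 7 at an unadjusted p under 0.05, where 7.94% of its genes did. Of the 38 log2 differences, 26 were below 0 and 12 above, with a median of -0.06, against a median of 0.00 for tested genes at or above 5 CPM. The range was -0.71 to 0.13. For 29 of the 38 genes the 95% interval lay within 0.5 of 0 on either side, so that for these a difference larger than that is outside the interval. The widest interval, for Gm20605, extended 1.17 to either side of the estimate.

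The members with the clearest separation were lower with valemetostat. Gm49759 differed by -0.71 ± 0.18 and Gm4076 by -0.41 ± 0.12 (log2, valemetostat minus tazemetostat), both with the uncertain assignment of reads given above. These were the genes that DESeq2 called, with adjusted p = 0.0187 for Gm49759 and adjusted p = 0.0134 for Gm4076, against edgeR adjusted p = 0.148 for Gm49759 and adjusted p = 0.304 for Gm4076. Tnf differed by -0.28 ± 0.10, lower in 3 of 3 valemetostat libraries than in any tazemetostat library (edgeR adjusted p = 0.423). Dync2h1 differed by -0.24 ± 0.09 with the same separation (edgeR adjusted p = 0.413). The 6 libraries did not overlap for 9 members, or 23.7%, against 14.2% of all tested genes. Of the 9, valemetostat was lower for Gm49759, Gm4076, Anks3, Uevld, Pde1b, Tnf, Col11a2 and Dync2h1, and higher for Togaram2, which differed by 0.13 ± 0.08. Ndor1 was called only without the valemetostat 3 library, at -1.13 (edgeR adjusted p = 0.0447), against -0.59 ± 0.28 with it (adjusted p = 0.616). For Cd36, Alcam, Plek, Myo5a, Tsc22d2 and Bcl2l11, the more abundant coding members, the 95% intervals of the difference lay between -0.24 and 0.16.

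**Figure D3:**
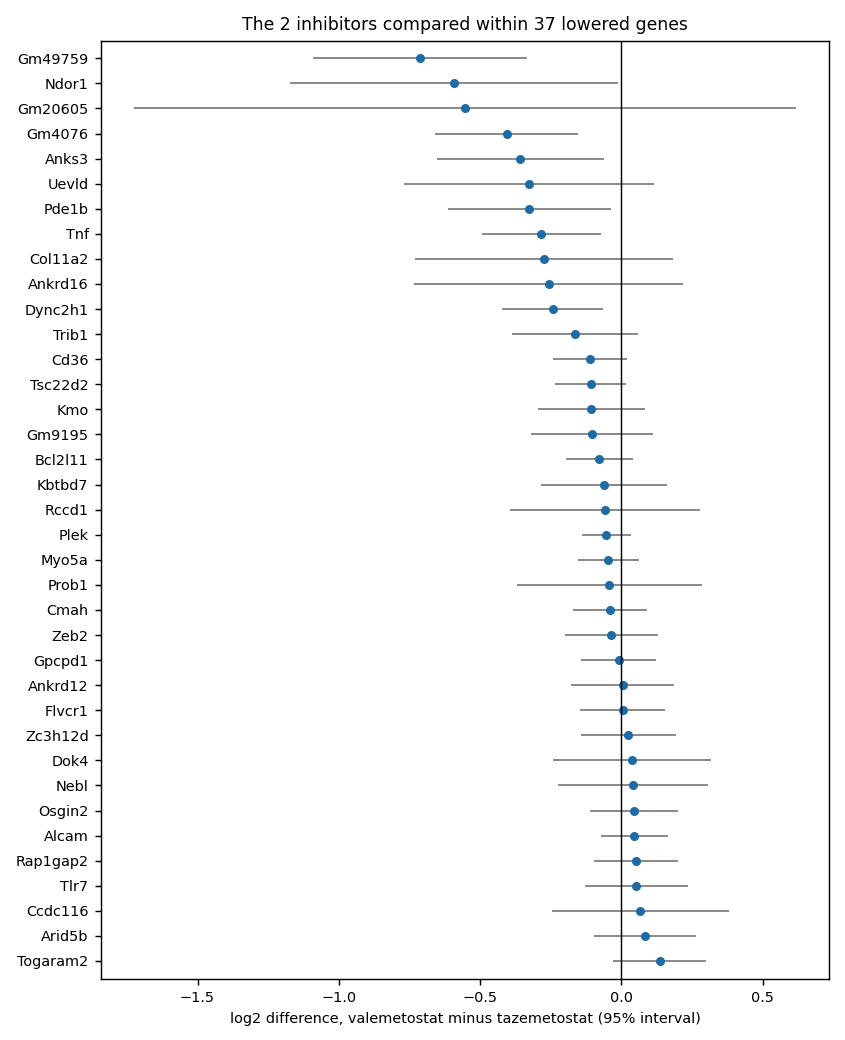
The log2 difference of valemetostat minus tazemetostat for 37 of the 38 genes, as points with 95% intervals, with the most negative at the top. Most points lie near 0, the intervals of 7 genes, with Gm49759 at -0.71 and Gm4076 at -0.41 among them, lie below 0, and Gm20605 has the widest interval.

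Genes related to the members by family or pathway were set beside them. They were listed once the members were known, and 109 of 128 were expressed enough to be tested. With tazemetostat 29 were called higher and 22 lower, where 19.9% of all tested genes were higher and 18.2% lower. With valemetostat 25 were called higher and 22 lower, where 20.5% of all tested genes were higher and 18.7% lower. The median log2 difference of the relatives was 0.01 with tazemetostat and 0.00 with valemetostat. Both inhibitor comparisons share the DMSO libraries.

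In some families the relatives were lower as well. Trib2, a pseudokinase like Trib1, differed from DMSO by -0.38 ± 0.06 (edgeR adjusted p = 4.2e-05) with tazemetostat and -0.50 ± 0.07 (adjusted p = 1.2e-06) with valemetostat. Trib3 differed by -0.41 ± 0.06 (edgeR adjusted p = 1.3e-05) with tazemetostat and -0.21 ± 0.06 (adjusted p = 0.00996) with valemetostat, and its call with valemetostat was lost without the valemetostat 3 library (adjusted p = 0.0774). Ankrd11, the paralog of Ankrd12, differed by -0.54 ± 0.07 (edgeR adjusted p = 4.5e-05) with tazemetostat and -0.58 ± 0.07 (adjusted p = 2.1e-05) with valemetostat. Togaram1, the ciliary paralog of Togaram2, differed by -0.40 ± 0.07 (edgeR adjusted p = 2.8e-05) with tazemetostat and -0.43 ± 0.07 (adjusted p = 9.7e-06) with valemetostat. Hmox1, the haem oxygenase set beside the transporter Flvcr1, differed by -0.58 ± 0.07 (edgeR adjusted p = 1.2e-07) with tazemetostat and -0.51 ± 0.07 (adjusted p = 9.5e-07) with valemetostat.

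In other families the relatives were called higher, were not called, or went in different directions. Tsc22d3, a paralog of Tsc22d2, differed by 0.31 ± 0.07 (edgeR adjusted p = 0.00127) with tazemetostat and 0.13 ± 0.07 (adjusted p = 0.160) with valemetostat, and its tazemetostat call was lost with limma on log2(TPM + 1) (adjusted p = 0.0782). Tsc22d4, another paralog, differed by 0.15 ± 0.05 (edgeR adjusted p = 0.0247) with tazemetostat and 0.19 ± 0.05 (adjusted p = 0.00679) with valemetostat, and with limma neither call was kept (adjusted p = 0.0582 with tazemetostat and 0.133 with valemetostat). Its tazemetostat call was also lost with library totals and with the length and GC offset. The same held without DMSO 2, DMSO 3, tazemetostat 1 or tazemetostat 2 (edgeR adjusted p = 0.0531 to 0.0908 over these alternatives). Zeb1, the paralog of Zeb2, differed by -0.03 ± 0.06 (edgeR adjusted p = 0.695) with tazemetostat and -0.03 ± 0.06 (adjusted p = 0.758) with valemetostat. The tryptophan pathway around Kmo held Kyat3, a kynurenine aminotransferase, at 0.57 ± 0.07 (edgeR adjusted p = 3.4e-07) with tazemetostat and 0.61 ± 0.07 (adjusted p = 1.2e-07) with valemetostat, and Haao, which acts downstream of Kmo, at 0.40 ± 0.08 with tazemetostat and 0.50 ± 0.08 with valemetostat. Both were called higher, although the tazemetostat call of Haao was lost with limma on log2(TPM + 1) (adjusted p = 0.102). Ido1, which opens the pathway, was at 0 counts in the 3 DMSO libraries and averaged 1.71 CPM with tazemetostat and 1.31 CPM with valemetostat. Of the mRNA-decay genes set beside Zc3h12d, N4bp1 differed by -0.31 ± 0.05 (edgeR adjusted p = 2.7e-05) with tazemetostat and -0.32 ± 0.05 (adjusted p = 1.5e-05) with valemetostat, and Rc3h2, which encodes Roquin-2, by -0.40 ± 0.10 with tazemetostat and -0.47 ± 0.10 with valemetostat, the tazemetostat call of which was lost with limma on log2(TPM + 1) (adjusted p = 0.0606). Zc3h12a, which encodes regnase-1 of the same family as Zc3h12d, differed the other way, by 0.31 ± 0.09 (edgeR adjusted p = 0.00714) with tazemetostat and 0.18 ± 0.09 (adjusted p = 0.119) with valemetostat, and its tazemetostat call was lost with limma on log2(TPM + 1) (adjusted p = 0.116). Siae, a sialic acid esterase set beside Cmah, differed by 0.70 ± 0.09 (edgeR adjusted p = 4.9e-07) with tazemetostat and 0.99 ± 0.09 (adjusted p = 1.2e-09) with valemetostat. St6gal1, which adds terminal sialic acid, differed by -0.29 ± 0.05 (edgeR adjusted p = 1.8e-05) with tazemetostat and -0.22 ± 0.05 (adjusted p = 5.4e-04) with valemetostat. Fabp5, a fatty acid-binding protein set beside Cd36, differed by 1.51 ± 0.06 (edgeR adjusted p = 5.0e-17) with tazemetostat and 1.45 ± 0.06 (adjusted p = 1.1e-16) with valemetostat.

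Around Bcl2l11, the anti-apoptotic Mcl1 and Bcl2, whose products bind BIM, were not called with either inhibitor, at -0.01 ± 0.04 with tazemetostat and 0.03 ± 0.04 with valemetostat for Mcl1, and -0.07 ± 0.08 with tazemetostat and -0.16 ± 0.08 with valemetostat for Bcl2. Bcl2l1, which encodes the BIM-binding anti-apoptotic BCL-XL, differed by 0.24 ± 0.05 (edgeR adjusted p = 2.7e-04) with tazemetostat and -0.03 ± 0.05 (adjusted p = 0.646) with valemetostat. Pmaip1, which encodes the BH3-only protein NOXA, differed by 0.25 ± 0.05 (edgeR adjusted p = 2.1e-04) with tazemetostat and 0.02 ± 0.05 (adjusted p = 0.811) with valemetostat. Both tazemetostat calls were lost with limma on log2(TPM + 1), with adjusted p = 0.178 for Bcl2l1 and adjusted p = 0.103 for Pmaip1. Valemetostat minus tazemetostat was called for both, at -0.27 for Bcl2l1 (edgeR adjusted p = 0.00759) and -0.23 for Pmaip1 (edgeR adjusted p = 0.0275). Without tazemetostat 1, valemetostat 1 or valemetostat 2 this call was lost for Bcl2l1 (edgeR adjusted p = 0.0856 to 0.147), and for Pmaip1 it was lost without any 1 of those libraries, tazemetostat 2 or tazemetostat 3 (edgeR adjusted p = 0.052 to 0.26). With limma on log2(TPM + 1) the call between the inhibitors was lost for each gene (adjusted p = 0.669). For Pmaip1 it was also lost with library totals (edgeR adjusted p = 0.0575) and with the replicate block (edgeR adjusted p = 0.0696). Leaving out DMSO 3 put the valemetostat difference of Bcl2 at -0.21, past the threshold (edgeR adjusted p = 0.0409). Bmf, another BH3-only gene, was called higher with both inhibitors, at 0.57 ± 0.15 (edgeR adjusted p = 0.00386) with tazemetostat and 0.54 ± 0.15 (adjusted p = 0.00529) with valemetostat. Those calls were lost with limma on log2(TPM + 1), where the differences were 0.03 with tazemetostat (adjusted p = 0.911) and 0.05 with valemetostat (adjusted p = 0.831). The tazemetostat call was also lost without tazemetostat 1 (edgeR adjusted p = 0.0544) and the valemetostat call without valemetostat 3 (edgeR adjusted p = 0.0571). Bid and Bbc3, also BH3-only genes, were called lower with tazemetostat, at -0.20 ± 0.05 (edgeR adjusted p = 0.00552) and -0.22 ± 0.08 (adjusted p = 0.0234). Neither was called with valemetostat (edgeR adjusted p = 0.192 for Bid and 0.354 for Bbc3). Bid lost its tazemetostat call without tazemetostat 1 (edgeR adjusted p = 0.0532) and gained a valemetostat call with limma (adjusted p = 0.0467) and with either offset. Bad and Bik were not called with either inhibitor. Next to Tnf on the chromosome, Lta, which encodes lymphotoxin, differed by -0.28 ± 0.20 (edgeR adjusted p = 0.296) with tazemetostat and -0.99 ± 0.21 (adjusted p = 5.3e-04) with valemetostat. Tlr2, a surface Toll-like receptor, differed by -0.36 ± 0.09 (edgeR adjusted p = 0.00269) with tazemetostat and -0.52 ± 0.09 (adjusted p = 6.6e-05) with valemetostat, and Tlr9, the endosomal DNA receptor, by 0.25 ± 0.11 (edgeR adjusted p = 0.0785) with tazemetostat and 0.19 ± 0.11 (adjusted p = 0.182) with valemetostat. Tlr4, the lipopolysaccharide receptor, was higher from a low level, at 1.36 ± 0.30 (edgeR adjusted p = 9.3e-04) with tazemetostat and 1.03 ± 0.31 (adjusted p = 0.00906) with valemetostat, and its valemetostat call was lost without DMSO 1 (adjusted p = 0.0514) and with limma on log2(TPM + 1) (adjusted p = 0.0534). Tlr6, a partner of Tlr2, differed by 0.52 ± 0.21 (edgeR adjusted p = 0.0497) with tazemetostat and 0.15 ± 0.21 (adjusted p = 0.619) with valemetostat, but its tazemetostat call was lost in 13 of the alternatives and reversed to -0.12 with limma (adjusted p = 0.775). By edgeR, Tlr9 was called higher with tazemetostat under the length and GC offset (adjusted p = 0.0303) and without DMSO 2 (adjusted p = 0.0219). Of the 6 tested partners of Dync2h1 in cilia (Dync2li1, Ift122, Ift140, Ift43, Wdr19 and Wdr35), 0 were called by edgeR with either inhibitor, and 0 had an unadjusted p under 0.05.

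**Figure D4:**
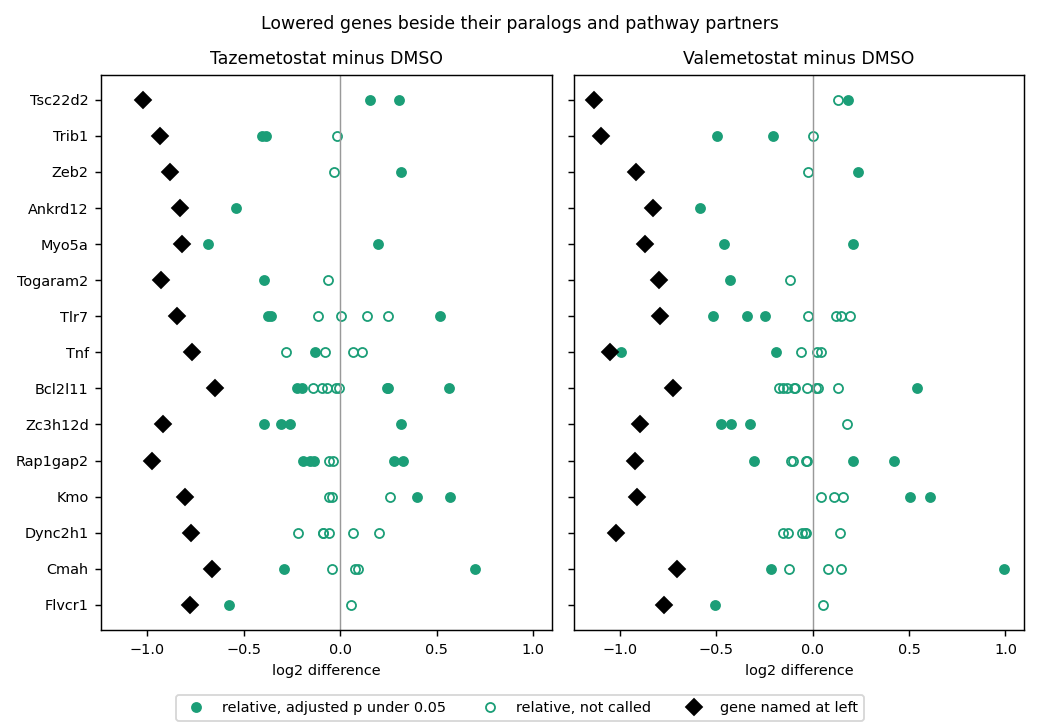
Log2 difference from DMSO for 15 of the 38 genes (diamonds) and for their tested relatives of at least 1 CPM in DMSO (circles, filled where the edgeR adjusted p was under 0.05), with tazemetostat in the left panel and valemetostat in the right. The diamonds lie left of 0 by the choice of genes, and the relatives lie on both sides of 0, with that of Ankrd12 left of it and those of Tsc22d2 right of it.

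The 38 genes had long transcripts. The median over genes of the longest annotated transcript was 4343 nt, against 3443 nt for tested genes at or above 5 CPM, and 30 of the 38 were above that value. With the median transcript of each gene the values were 2218 nt for the 38 genes and 1324 nt for tested genes at or above 5 CPM, and 34 of the 38 were above 1324 nt. Transcript length moved with the groups over a larger set of 9040 genes. Over these genes, the longest transcript and the log2 difference from DMSO had a Spearman correlation of -0.35 with tazemetostat and -0.41 with valemetostat, and with the median transcript the correlation was -0.19 with tazemetostat and -0.20 with valemetostat, a description across genes that share libraries. Within the 38 genes, whose differences the rule limits, the correlation with the longest transcript was -0.12 with tazemetostat and 0.16 with valemetostat. With the median transcript it was -0.13 with tazemetostat and -0.0005 with valemetostat. Per library, the correlation of the longest transcript with the deviation from the gene mean was -0.03, -0.01 and -0.44 with tazemetostat, -0.25, -0.45 and -0.24 with valemetostat and 0.29, 0.48 and 0.21 with DMSO.

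When a length and GC offset for each library was added to the fit, the median log2 difference of the 38 genes was -0.85 with tazemetostat and -0.90 with valemetostat, against -0.87 with tazemetostat and -0.92 with valemetostat without it. With the longest transcripts in the offset the medians were -0.86 with tazemetostat and -0.82 with valemetostat. On log2(TPM + 1) they were -0.78 with tazemetostat and -0.83 with valemetostat. These medians describe genes whose direction the rule set. The median over all tested genes stayed within 0.1 of 0 in each of these fits. The rule applied to CPM corrected with the offset gave 34 genes, of which 30 were among the 38, and Plek, Dync2h1 and Kbtbd7 were among those lost.

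**Figure D5:**
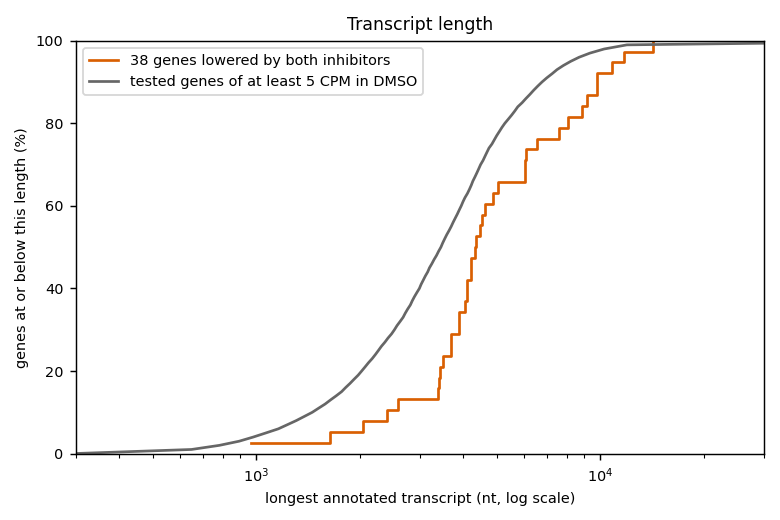
Cumulative share of genes (%) by the length of the longest annotated transcript (nt, log axis) for the 38 genes and for tested genes of at least 5 CPM in DMSO. The curve of the 38 genes lies to the right, with a median of 4343 nt against 3443 nt for the other curve.

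Lists of large scaffold, kinase and chromatin proteins and of B-cell programmes were also counted. These lists, too, were drawn up with earlier results of these data known, so their direction is a description. Among all tested genes, 18.2% were called lower and 19.9% higher with tazemetostat, and 18.7% lower and 20.5% higher with valemetostat. At or above 5 CPM in DMSO, 2131 of 9487 tested genes were lower with tazemetostat and 2198 with valemetostat. Of 14 giant E3 ubiquitin ligases, 13 were called lower with each inhibitor, with a median log2 difference of -0.48 with tazemetostat and -0.52 with valemetostat, and Herc1 differed by -0.67 ± 0.06 with tazemetostat and -0.69 ± 0.06 with valemetostat. All 6 kinases related to PI3-kinase were lower with each inhibitor, and Prkdc, the DNA-dependent protein kinase, differed by -0.54 ± 0.06 with tazemetostat and -0.76 ± 0.07 with valemetostat. Of 23 histone methyltransferases, acetyltransferases and partners, 18 were lower with tazemetostat and 19 with valemetostat, among them Setd2, which trimethylates H3K36, at -0.46 ± 0.06 with tazemetostat and -0.54 ± 0.06 with valemetostat. Of 22 centrosome, kinetochore and spindle genes, 16 were lower with tazemetostat, and 17 lower and 1 higher with valemetostat, with Cep164, a centriole appendage protein, at -0.64 ± 0.06 with tazemetostat and -0.69 ± 0.06 with valemetostat. Of 34 splicing and nuclear speckle genes, 21 were lower with each, and of 23 cytoskeletal and trafficking giants 13 were lower and 3 higher with tazemetostat, and 14 lower and 1 higher with valemetostat, with Utrn, the dystrophin relative utrophin, higher at 1.97 ± 0.40 (edgeR adjusted p = 3.5e-04) with tazemetostat and 1.99 ± 0.40 (adjusted p = 3.2e-04) with valemetostat. The Utrn calls were lost with limma on log2(TPM + 1) (adjusted p = 0.312 with tazemetostat and 0.193 with valemetostat). Mediator subunits were called lower for 8 of 33 with each, and higher for 1 with tazemetostat and 2 with valemetostat. DOCK exchange factors were called lower for 3 of 8 with each. The median log2 difference over all tested genes was 0.00 with tazemetostat and 0.01 with valemetostat.

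Of 36 mature and activated B-cell genes, 18 were called higher and 6 lower with tazemetostat, and 14 higher and 5 lower with valemetostat. Fcer2a, the low-affinity IgE receptor CD23, differed by 1.35 ± 0.06 with tazemetostat and 1.32 ± 0.06 with valemetostat, and Bach2, a repressor of plasma cell differentiation, by 1.46 ± 0.07 with tazemetostat and 1.19 ± 0.07 with valemetostat. Of 15 TSC22-domain, FOXO and mTORC1-feedback genes beside Tsc22d2, 4 were higher and 9 lower with tazemetostat, and 4 higher and 8 lower with valemetostat, with Sesn2, a stress-induced inhibitor of mTORC1, at -0.42 ± 0.05 with tazemetostat and -0.39 ± 0.05 with valemetostat. Tsc22d2 was the only member of the 38 that any of the lists held. Of 14 genes of the ATF4 amino acid response, 8 were lower and 2 higher with tazemetostat, and 7 lower and 3 higher with valemetostat. Of 20 cholesterol synthesis genes, 5 were lower and 2 higher with tazemetostat, and 12 lower and 0 higher with valemetostat. Of 10 plasma cell genes, 2 were lower and 0 higher with tazemetostat, and 2 lower and 2 higher with valemetostat. Immediate early genes were higher for 8 of 22 and lower for 2 with tazemetostat, and higher for 5 and lower for 7 with valemetostat. These counts stand beside 19.9% of all tested genes higher and 18.2% lower with tazemetostat, and 20.5% higher and 18.7% lower with valemetostat.

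The 38 genes were spread over the genome. Chromosome 2 held 6 (15.8%, against 8.03% of tested genes at or above 5 CPM), chromosome 17 held 4 (10.5%, against 5.30%) and every other chromosome 0 to 3. The 75 nearest tested protein-coding neighbours that are not members were called lower for 13 (17.3%) with tazemetostat and for 16 (21.3%) with valemetostat, and higher for 16 with each, the lower ones near the share of all tested genes (18.2% with tazemetostat and 18.7% with valemetostat). The neighbours' median log2 difference was -0.06 with tazemetostat and -0.02 with valemetostat. Some neighbours share exon bases with the member beside them, namely Lrch4, Sap25, Pkm, Ydjc, Prc1, Polr2c and the main Ndor1 identifier. Their values are therefore not separate from those of the members, and the main Ndor1 identifier was among the neighbours called lower with tazemetostat. Of the 38 genes, 36 are annotated as protein coding in GENCODE M21.

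RefSeq promoter windows of 300 bases, at the first start listed for each gene, were matched for 27 of the 38 genes. Their median G and C content was 59.0%, against 61.3% for 7598 genes at or above 5 CPM and 52.7% for all 27025 windows. The median ratio of observed to expected CpG was 0.688, against 0.804 for the expressed genes and 0.389 for all windows. The GC box GGGCGG was in 55.6% of the members' windows, against 67.8% of the expressed genes' and 35.9% of all windows. The CCAAT box was in 44.4% of the members' windows, against 40.0% of the expressed genes' and 37.9% of all, in Cd36, Alcam, Zeb2 and Bcl2l11 among others. The TATA box TATAAA was in 11.1% of the members' windows (Arid5b, Col11a2 and Tnf), against 6.01% of the expressed genes' and 14.2% of all. The ETS site CCGGAAG was in 14.8% of the members' windows, against 21.9% of the expressed genes' and 9.12% of all. The E-box CACGTG was in 3.70%, against 11.2% of the expressed genes' and 7.24% of all, and the AP-1 site TGANTCA in 3.70%, against 4.13% of the expressed genes' and 7.93% of all. With 27 windows, 1 gene is 3.70%. The cyclic AMP response element TGACGTCA had no match in the members' windows, nor had the NRF1, YY1, interferon-stimulated response and NF-κB motifs, and each of these was in 0.395 to 3.67% of the expressed genes' windows. All motifs were searched on both strands with exact letters.

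The labelled cell type was checked by markers. All 8 B-cell markers were at or above 1 CPM in every library, with summed levels of 3477 to 3514 CPM with tazemetostat, 3602 to 3774 CPM with valemetostat and 3090 to 3320 CPM with DMSO. Of 9 myeloid markers, 3 reached 1 CPM in every library and Cd14, S100a8 and S100a9 were at 0, with sums of 39.2 to 44.7 CPM with tazemetostat, 38.7 to 43.5 CPM with valemetostat and 36.1 to 40.5 CPM with DMSO. Of 9 T and NK cell markers, of which Ncr1 was at 0, Lck alone reached 1 CPM in every library, with sums of 47.2 to 49.0 CPM with tazemetostat, 49.7 to 55.3 CPM with valemetostat and 38.9 to 42.2 CPM with DMSO. Of 9 stromal, endothelial and epithelial markers none did and Col1a2 and Cdh1 were at 0, with sums of 2.26 to 3.97 CPM with tazemetostat, 2.50 to 3.56 CPM with valemetostat and 1.89 to 3.34 CPM with DMSO. In longer lists of other cell types, 3 of 6 tested myeloid genes were called higher and 1 lower with each inhibitor, 4 of 13 T and NK cell genes were higher with each, and 2 of 6 stromal, endothelial and epithelial genes were higher with each. The shares of all tested genes were 19.9% higher and 18.2% lower with tazemetostat, and 20.5% higher and 18.7% lower with valemetostat. Summed B-cell markers were higher with the inhibitors, while the summed CPM of the 38 genes was 1597 to 1696 with tazemetostat, 1543 to 1668 with valemetostat and 2720 to 2931 with DMSO. The part of the markers in the members' levels was not tested.

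The genes whose pattern over the 9 libraries was most like the members' mean were Ubp1, Daam1, Rapgef1, Asap1 and Suco, with Pearson correlations from 0.993 (Suco) to 0.997 (Ubp1) over the 9 values of log2 CPM. The inhibitor and the DMSO libraries form separate clusters in these values, so the correlation mostly reads that separation. Rapgef1, an exchange factor for RAP1, averaged 462 CPM with tazemetostat, 450.1 CPM with valemetostat and 682 CPM with DMSO. Ubp1, a transcription factor of the grainyhead family, averaged 108 CPM with tazemetostat, 106 CPM with valemetostat and 155 CPM with DMSO.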

How the data were processed

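Poly(A) RNA of 9 libraries (3 per group) was sequenced. The authors deposited whole-number counts per gene and a table of log2(TPM + 1) values. The genome build was mm9, per the submitters' processing notes. The sources used here do not name the aligner, the counting program or its use of strand. In each library, 15 to 48 genes at 0 counts carry a nonzero TPM, and the counts may thus be estimates that the authors rounded.

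Members were found on the counts by the stated rule. The members, the gene lists and the relatives were chosen with earlier results of these data known. Counts of all 12580 genes passing filterByExpr (minimum count 10, minimum total 15) were fitted in edgeR 4.0.16 (R 4.3.3) with TMM scaling and the robust quasi-likelihood test, in 1 fit of all 9 libraries. The threshold was a Benjamini-Hochberg adjusted p of 0.05 over all tested genes. Errors of log2 differences are standard errors. The labels do not say that replicates were separate cultures, so p-values reflect library-to-library spread alone, possibly technical. Replicates differed beyond sampling noise (chi-square over degrees of freedom 5.28 to 13.7).

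Named members are the 12 with the lowest ratio, the 8 most abundant, those at the edges of the rule, and members on a list. Per list, up to 3 genes with the smallest p could be named. Relatives, remaining members and the predicted genes were named after their values were seen. Alternatives were DESeq2 1.42.0, RLE size factors, library totals, other filters, limma 3.58.1 on the deposited log2(TPM + 1) values, the replicate number as a block, the compared groups alone, a length and GC offset (splines with 5 degrees of freedom), and leaving out each library. The offset with longest transcripts was added after seeing the data. GENCODE M21 (GRCm38) gave lengths, overlaps and gene order, with no coordinates carried over to mm9, and RefSeq gave promoters. The 1329 identifiers with no symbol held at most 0.00131% of a library's counts. Of the list of nuclear long non-coding RNAs, 0 of 13 could be tested, and it was not analysed here. The values of 1 member are not reported here, and it is left out of the plots that name genes, while counts and medians include it.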

Additional observations from a re-analysis of the deposited data

How the results depend on the processing

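The number of genes the rule gave was 38. It moved to 7 with a ratio of 0.6, 157 with 0.8, 25 on TPM and 172 with group means in place of single libraries, and ran from 38 to 89 when 1 library was left out, with 89 without DMSO 3. Other floors, TMM scaling and the length offsets gave 29 to 55. The median transcript length was 2218 nt and 4343 nt with the longest transcript of each gene. Between valemetostat and tazemetostat, 40 genes were called in all, against 77 with DESeq2, 93 with no filter, 79 with the longest-transcript offset, 1 with limma on log2(TPM + 1), and 9 (without valemetostat 2) to 73 (without tazemetostat 3) when 1 library was left out. Of the 38 genes, 0 were called, against 2 with DESeq2, 2 with no filter, 1 with the compared groups alone, and 0 to 2 when 1 library was left out. The genes were Gm49759, Gm4076 and, without valemetostat 3, Ndor1. Against DMSO, 4794 genes were called with tazemetostat and 4927 with valemetostat, and limma called 3123 with tazemetostat (37.7% higher) and 3308 with valemetostat (36.0% higher), against 52.3% higher in each comparison by edgeR. The cause of these shifts was not tested. Against DMSO, where the rule set the direction, 46 values of members with tazemetostat and 52 with valemetostat moved by more than the replicate spread under an alternative, and 676 with tazemetostat and 670 with valemetostat moved by less. The tazemetostat difference of Tlr6 was 0.52 by edgeR and reversed to -0.12 with limma. Libraries with the same replicate number shared little deviation from their group means, with correlations of -0.04 to 0.08. The labels do not say whether such libraries were prepared together, and these correlations cannot show it. A replicate block gave 4527 calls for tazemetostat and 4713 for valemetostat against DMSO, 32 between the inhibitors, and 0 of those among the 38 genes. Among members under 10 CPM in DMSO, the standard error of the difference between the inhibitors ran from 0.14 (Pde1b) to 0.49 (Gm20605).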
